A study of Sus scrofa with 14 samples.

Results

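The extracellular proteases and crosslinking enzymes of 2 pig fat depots are described here through 46 genes of the 21280 protein-coding genes in the expression tables. They are the genes whose Sus scrofa symbol is MMP, TIMP or ADAMTS followed by a number, or LOX or LOXL with a number. These symbols gave 19 matrix metalloproteinases (MMP), 3 of their tissue inhibitors (TIMP), 19 ADAMTS proteases and 5 lysyl oxidases (LOX and LOXL1 to LOXL4). MMP3 and TIMP2 had no matched identifier and were not analysed here.

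RNA-seq was performed on the greater omentum (GOM), a visceral fat depot, and the upper layer of backfat (ULB), a subcutaneous depot, of 4 female pigs aged 2 years, 2 wild boars and 2 Bama Xiang pigs. The wild boars had been taken into captivity young, and both breeds were housed and fed alike. Both depots came from the same animals. The wild boar GOM, the Bama pig GOM and the wild boar ULB had 2 libraries each, and the Bama pig ULB had 1 (replicate 2), 7 in all. A second measurement, Hi-C contact mapping of nuclei from the floating adipocyte layer, gave 7 libraries of the same groups.

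Collagen, elastin and proteoglycans form a mesh around fat cells that has to be cut and rebuilt as the cells enlarge. MMPs cut collagens and other matrix proteins, TIMPs bind and block them, ADAMTS enzymes trim procollagen ends or cut proteoglycans, and lysyl oxidases tie collagen and elastin chains together. Many of these enzymes are made by fibroblasts, preadipocytes, macrophages and endothelial cells of the fat rather than by the fat cells themselves. Because the tissue was measured in bulk, fewer cells of a type and less RNA per cell cannot be told apart.

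Total estimated counts were 10833153 to 18627076 per library. The 6 adipocyte markers summed to 9576 to 18196 TPM (transcript abundance scaled by gene length and library depth) in every library. The mesothelial markers measured (WT1, UPK1B and CALB2, 3 of 8 listed, with CALB2 at 0 in 3 GOM libraries) summed to 72.7 to 187 TPM in the GOM and 0.586 to 3.73 in the ULB, and the 6 macrophage markers to 465 to 1183 in the GOM and 326 to 407 in the ULB. Wild boar ULB replicate 1 stood apart in skeletal muscle markers (3 of 5 measured), at 291 TPM against 2.03 to 6.41 elsewhere. The GOM libraries of Bama pig were less alike (Spearman's rho over genes 0.920) than the first of them and the ULB library of that breed (0.931), which carry different replicate numbers.

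The 200 bases upstream of the annotated start are shown for 5 of the genes on which the depot and breed results below turn, read 5′ to 3′ on the gene's own strand from the Sscrofa11.1 assembly with RefSeq starts. In capitals are matches on either strand to the Sp1 motif GGGCGG. The TATA box letters TATAAA were searched too, as was TGANTCA, a motif of AP-1, a factor that acts on many MMP genes. The windows are chr9:33379829-33380028 (minus strand) for MMP27, chr2:125607027-125607226 (minus) for LOX, chr6:30087032-30087231 (minus) for MMP2, chr1:273021814-273022013 (plus) for ADAMTS13 and chr17:38587030-38587229 (plus) for MMP24.
MMP27: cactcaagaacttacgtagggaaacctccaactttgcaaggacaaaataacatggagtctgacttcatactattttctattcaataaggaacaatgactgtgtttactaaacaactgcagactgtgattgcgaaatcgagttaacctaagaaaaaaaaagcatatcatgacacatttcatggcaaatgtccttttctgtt
LOX: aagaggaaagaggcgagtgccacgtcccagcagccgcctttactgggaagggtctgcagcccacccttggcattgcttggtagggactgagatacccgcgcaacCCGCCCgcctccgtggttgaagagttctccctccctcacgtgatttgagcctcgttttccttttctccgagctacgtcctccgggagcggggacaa
MMP2: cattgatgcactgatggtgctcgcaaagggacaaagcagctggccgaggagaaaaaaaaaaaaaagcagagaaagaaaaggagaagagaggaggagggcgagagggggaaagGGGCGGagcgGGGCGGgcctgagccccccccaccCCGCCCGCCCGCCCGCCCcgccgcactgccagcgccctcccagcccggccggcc
ADAMTS13: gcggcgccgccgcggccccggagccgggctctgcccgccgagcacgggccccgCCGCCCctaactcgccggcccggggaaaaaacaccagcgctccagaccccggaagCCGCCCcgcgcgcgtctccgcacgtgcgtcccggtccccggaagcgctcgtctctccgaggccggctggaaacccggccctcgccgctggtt
MMP24: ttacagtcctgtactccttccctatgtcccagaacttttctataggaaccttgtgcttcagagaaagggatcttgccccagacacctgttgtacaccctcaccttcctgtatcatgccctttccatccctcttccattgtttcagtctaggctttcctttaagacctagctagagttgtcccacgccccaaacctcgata
The window of MMP27 was AT-rich, with 35.5% G and C, against a median of 61.5% over 13521 windows of the same length. LOX (60.5%), MMP2 (67.0%) and ADAMTS13 (78.5%) were near or above that median, and MMP24 (48.0%) was below it. TATAAA was matched in none of the 5, in 7 of the 46 members (MMP1, MMP7, MMP12, MMP19, MMP20, MMP28 and ADAMTS8) and in 6.25% of all windows. The window of MMP1, which is also among the depot results below, is not shown. GGGCGG was matched in LOX, MMP2 and ADAMTS13, in 21 members and in 50.7% of all windows. TGANTCA was matched in none of the 5, in 5 members (MMP9, MMP12, MMP19, MMP20 and TIMP4) and in 3.62% of all windows. A match describes the letters of the window only.

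All but 1 of the 46 members exceeded 0.1 TPM in at least 1 library, some of them with few counts. A single member, MMP20 (enamelysin, an enzyme of tooth enamel formation), was silent, taken as 0.1 TPM or less in every library, and it lay between 0 and 0.0947 TPM. The limit was close, and with TPM rescaled over the listed genes 0 members were silent. The 1 silent gene is 2.17% of the members, while 10.1% of all 21280 listed genes were silent. Every member has a symbol, whereas 14821 of the listed genes do, so the 2 shares come from unlike sets. At a limit of 0.5 TPM in every library there were 5 low members, which were MMP20, MMP7 (matrilysin, an epithelial enzyme), MMP13 (a collagenase best known from cartilage and bone), MMP17 (a membrane-anchored MMP) and ADAMTS19. Counts were few for these: MMP20 had at most 2 and MMP7 at most 3 in any library, so depot or breed differences of either were not detectable at this depth.

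In contrast, 39 members exceeded 0.1 TPM in all 7 libraries and 27 exceeded 1 TPM. The mean over the libraries was above 10 TPM for 20 members and above 50 for 6, namely TIMP3, MMP2, MMP14, LOX, ADAMTS5 and ADAMTS1. The median member had a mean of 7.997 TPM against 4.36 for all listed genes, which include genes without a symbol. Together the members took 0.111% to 0.169% of the TPM in the GOM and 0.194% to 0.216% in the ULB, with no overlap. This sum is weighted by the most abundant members. MMP2 alone made up 5.12% to 13.2% of the members' TPM in the GOM and 22.1% to 28.0% in the ULB, while the median depot log2 fold change of the members was -0.08.

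**Figure D1:**
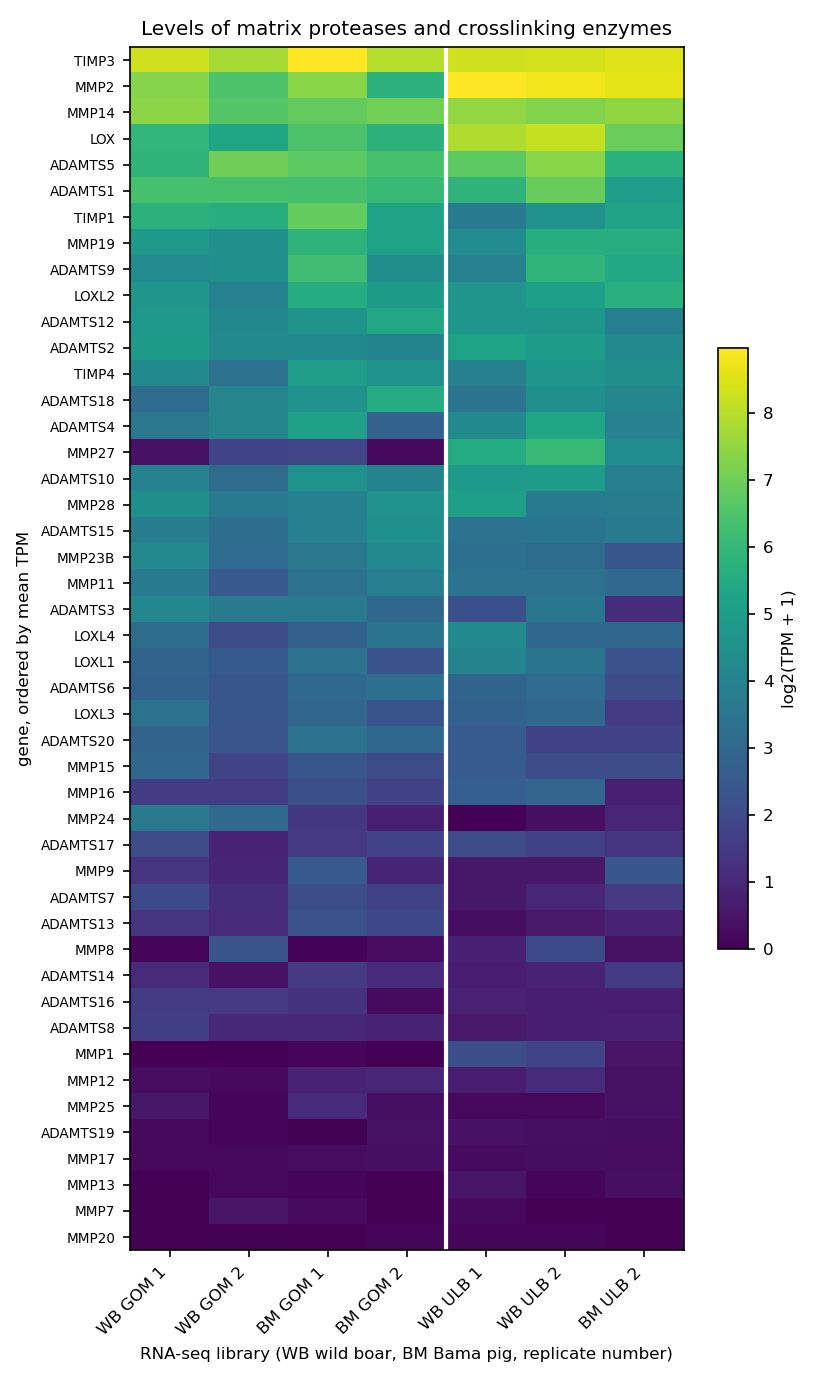
Heatmap of log2(TPM + 1) for the 46 genes (vertical axis, ordered by mean TPM) in the 7 RNA-seq libraries (horizontal axis, WB wild boar, BM Bama pig, replicate number), with a white line between GOM and ULB. TIMP3 and MMP2 are brightest, MMP20 at the bottom is dark in every library, and MMP27, LOX and MMP2 are brighter to the right of the line.

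The inhibitors were led by TIMP3, which is held in the matrix and blocks MMPs and several ADAMTS enzymes. TIMP3 had 318 and 216 TPM in the wild boar GOM, 499 and 249 in the Bama pig GOM, 320.0 and 328 in the wild boar ULB and 369 in the Bama pig ULB. It was the highest member in each GOM library, with 23.2% to 30.8% of the members' TPM. TIMP1, a soluble inhibitor, had 53.3 and 46.9 TPM in the wild boar GOM, 114 and 35.1 in the Bama pig GOM, 11.8 and 22.9 in the wild boar ULB and 36.5 in the Bama pig ULB. The depots thus overlapped for TIMP1 through the Bama pig libraries, whereas in the wild boars both GOM values were above both ULB values. TIMP4 ranged from 9.47 to 31.4 TPM. TIMP1, TIMP3 and TIMP4 each lie inside a synapsin gene on the opposite strand (SYN1, SYN3 and SYN2), and although the kits were strand-specific, the study's methods give default settings for Kallisto, which do not use strand. SYN1 and SYN3 were at or below 0.672 TPM in every library, and SYN2 at 0.494 to 3.95 TPM.

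Among the proteases, MMP2, the gelatinase made by stromal cells, was the highest member in each ULB library. It had 163 and 87.9 TPM in the wild boar GOM, 164 and 52.8 in the Bama pig GOM, 500.3 and 442 in the wild boar ULB and 389.6 in the Bama pig ULB. Every ULB library was thus above every GOM library, despite a wide gap between the GOM replicates of Bama pig. MMP14, the membrane-anchored MMP that activates proMMP2, was nearly even, at 168 and 94.3, 112 and 131, 182 and 152, and 176 TPM in the same order of groups. MMP19, a secreted MMP expressed in many tissues, had 27.9 and 21.7, 55.5 and 35.0, 19.3 and 47.6, and 47.4 TPM, with overlapping depots. MMP9, the gelatinase of leukocytes, was low, at 0.493 to 4.77 TPM, with its 2 highest values in the Bama pig ULB and in replicate 1 of the Bama pig GOM.

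Of the crosslinking enzymes, LOX had 59.5 and 38.0 TPM in the wild boar GOM, 87.3 and 53.9 in the Bama pig GOM, 238 and 289 in the wild boar ULB and 121 in the Bama pig ULB. Again no GOM library reached the lowest ULB library. The 4 LOXL genes, which encode related oxidases, were lower. LOXL2, the highest of them, had 24.8 and 14.9 TPM in the wild boar GOM, 45.7 and 28.7 in the Bama pig GOM, 24.9 and 32.3 in the wild boar ULB and 50.4 in the Bama pig ULB. LOXL4 ranged from 3.19 to 18.1, LOXL1 from 3.73 to 15.1 and LOXL3 from 1.92 to 9.31, and for each of the 4 the depots overlapped. The 5 oxidases summed to 65.2 to 154 TPM in the GOM and 185 to 345 in the ULB.

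The ADAMTS enzymes were led by the proteoglycan-cutting ADAMTS5 and ADAMTS1, which are neighbours on chromosome 13. ADAMTS5 had 55.6 and 129 TPM in the wild boar GOM, 104 and 80.3 in the Bama pig GOM, 104 and 164 in the wild boar ULB and 52.4 in the Bama pig ULB. ADAMTS1 had 81.5 and 80.7, 79.1 and 65.9, 56.4 and 117, and 31.0 TPM in the same order. Neither gene separated the depots or the breeds. ADAMTS9, which cuts versican, had 19.1 and 21.7, 72.8 and 20.5, 14.6 and 58.0, and 39.1 TPM, with a wide gap between replicates in 2 of the 3 replicated groups. The procollagen N-proteinases ADAMTS2, ADAMTS3 and ADAMTS14 summed to 20.6 to 47.3 TPM, mostly from ADAMTS2.

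Replicates of a group were often apart. Among members above 1 TPM in both replicates, 9 of 33 in the wild boar GOM, 6 of 32 in the Bama pig GOM and 9 of 31 in the wild boar ULB differed more than 2-fold, against 13.1%, 23.0% and 7.68% of all such genes. In the Bama pig GOM these 6 were ADAMTS4, ADAMTS9, LOXL1, MMP2, TIMP1 and TIMP3, all higher in replicate 1.

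The depot comparison asked which members differed between the GOM and the ULB across both breeds. LOX, MMP2, MMP27 and MMP1 were lower in the GOM and ADAMTS13 was higher, so that 5 of 45 members tested were called, 4 lower and 1 higher. Called means an adjusted p below 0.05 (edgeR's quasi-likelihood test with breed as a term and Benjamini-Hochberg adjustment over 17934 genes) and an absolute log2 fold change above 1. Of all genes tested, 3.5% were called, 1.22% lower and 2.28% higher in the GOM. The median log2 fold change was -0.08 over the members and 0.04 over all genes.

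MMP27, a little-studied MMP, showed the widest contrast of the abundant members. It had 0.357 and 2.50 TPM in the wild boar GOM, 2.64 and 0.165 in the Bama pig GOM, 44.6 and 65.5 in the wild boar ULB and 19.7 in the Bama pig ULB. The highest GOM value was thus well under the lowest ULB value. The means were 1.42 ± 1.34 TPM (SD, n = 4) in the GOM and 43.3 ± 22.9 (SD, n = 3) in the ULB, a log2 fold change of -4.65 (SE 0.72, edgeR adjusted p = 0.00623). Without the Bama pig ULB library, the adjusted p was 0.0679.

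MMP1 is interstitial collagenase, which cuts the fibrillar collagens. It had 0 counts in 3 of the 4 GOM libraries and 2 in the remaining one, Bama pig replicate 1, against 53 and 37 in the wild boar ULB (3.40 and 2.53 TPM) and 5 in the Bama pig ULB (0.374 TPM). The groups did not overlap, but the Bama pig ULB library was far closer to the GOM than the wild boar libraries were. With counts and depths pooled within each depot, the CPM was 71.0 times higher in the ULB, with an exact 95% interval of 19.1 to 595 that covers counting error only (edgeR adjusted p = 0.0384). The edgeR call was lost without wild boar GOM replicate 1 or 2 (adjusted p = 0.122 and 0.117), Bama pig GOM replicate 2 (0.0582) or wild boar ULB replicate 1 or 2 (0.121 and 0.0913). In limma on log2(TPM + 1) the adjusted p was 0.0565.

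MMP2 averaged 117 ± 55.5 TPM (SD, n = 4) in the GOM and 444 ± 55.3 (SD, n = 3) in the ULB, with a log2 fold change of -1.97 (SE 0.39, edgeR adjusted p = 0.0199). The edgeR call was lost without wild boar GOM replicate 2, wild boar ULB replicate 1 or the Bama pig ULB library (adjusted p = 0.0610, 0.0673 and 0.169). LOX averaged 59.7 ± 20.5 TPM (SD, n = 4) in the GOM and 216 ± 85.8 (SD, n = 3) in the ULB, with a log2 fold change of -1.85 (SE 0.31, edgeR adjusted p = 0.00872). LOX was called with any single library left out, with a highest adjusted p of 0.0394. In the RefSeq annotation LOX lies inside LOC100525452, on the opposite strand.

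ADAMTS13, which cuts von Willebrand factor in blood, had 1.53 and 1.13 TPM in the wild boar GOM, 3.78 and 2.84 in the Bama pig GOM, 0.258 and 0.539 in the wild boar ULB and 0.855 in the Bama pig ULB. The depots did not overlap, and in each depot the Bama pig values were the higher ones. The log2 fold change was 1.77 (SE 0.42, edgeR adjusted p = 0.0459). This call was the least firm of the 5, being lost with any single library left out (adjusted p from 0.0506 to 0.177), under upper-quartile scaling (0.0572), in limma on TPM (0.116) and with the animal as a replicate block (0.0503). ADAMTS13 overlaps CACFD1 on the same strand, and CACFD1 itself had a depot log2 fold change of 0.06 (SE 0.35, edgeR adjusted p = 0.939).

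**Figure D2:**
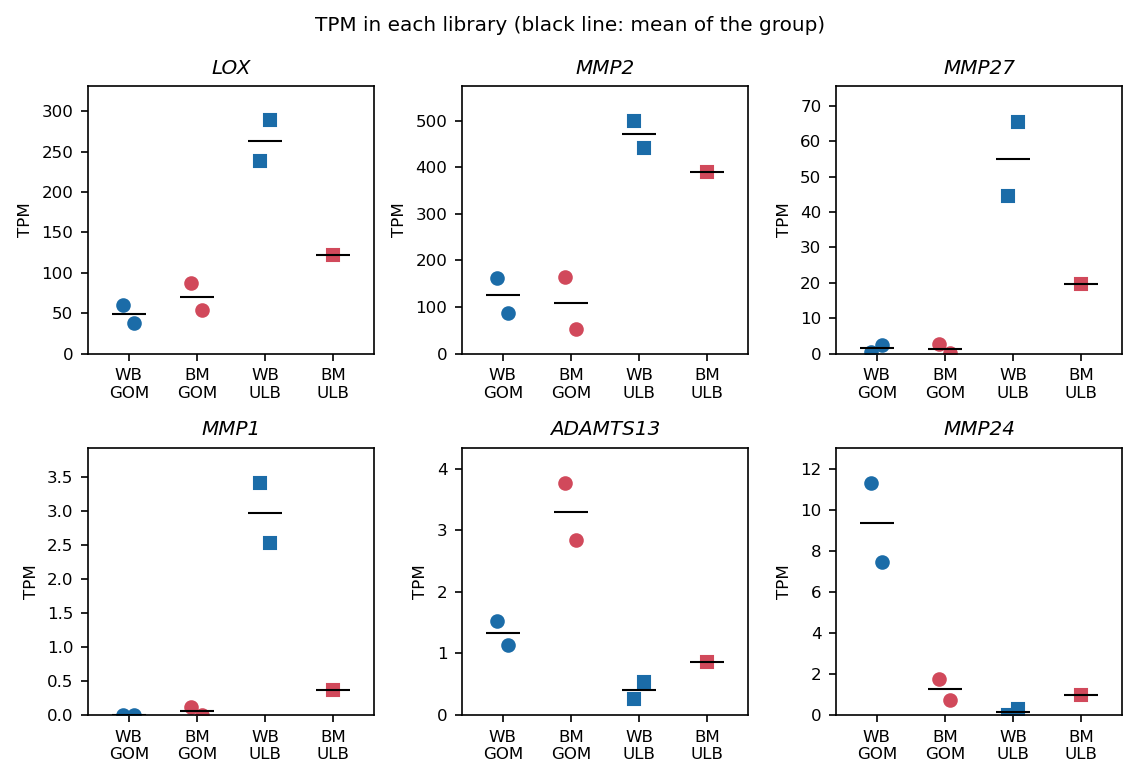
TPM (vertical axis, from 0, scaled per gene) of LOX, MMP2, MMP27, MMP1, ADAMTS13 and MMP24 in each library by breed and depot (horizontal axis, blue wild boar, red Bama pig, circles GOM, squares ULB), with black lines for group means. For LOX, MMP2, MMP27 and MMP1 all 3 ULB points lie above the 4 GOM points, and MMP24 is above 7 TPM in the wild boar GOM alone.

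Those 4 genes were also the members whose ULB values all exceeded all GOM values, a pattern seen in 2.64% of the genes tested. The reverse held for ADAMTS13 and ADAMTS8, and for 8.3% of the genes tested. ADAMTS8 was low throughout, at 0.848 to 2.20 TPM in the GOM and 0.529 to 0.711 in the ULB, and its difference did not pass the test (edgeR adjusted p = 0.378).

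Counting the 5 called ones, 11 members had an unadjusted p under 0.05, 24.4% of those tested against 18.9% of all genes. Those given next were not called. ADAMTS3, which removes the N-propeptide of procollagen and processes VEGF-C, had 17.3 and 11.8 TPM in the wild boar GOM, 12.1 and 7.15 in the Bama pig GOM, 3.52 and 10.6 in the wild boar ULB and 1.23 in the Bama pig ULB. The depots overlapped by wild boar ULB replicate 2, and the log2 fold change was 1.73 (SE 0.43, edgeR adjusted p = 0.0538). It was called by DESeq2 (adjusted p = 0.00191) and with the replicate block (0.0199). TIMP1 had a log2 fold change of 1.26 (SE 0.43, edgeR adjusted p = 0.148), which was called without Bama pig GOM replicate 2 (0.0224). MMP23B, a membrane-anchored MMP, had 17.5 and 7.83 TPM in the wild boar GOM, 11.06 and 17.7 in the Bama pig GOM, 8.74 and 7.97 in the wild boar ULB and 4.29 in the Bama pig ULB, with an edgeR adjusted p of 0.166.

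The mesothelial and macrophage marker sums given above were higher in every GOM library than in any ULB library, as ADAMTS13 was. So were the 7 T and B cell markers, at 42.6 to 63.0 TPM in the GOM and 23.1 to 29.5 in the ULB, of which CD2 was called (edgeR adjusted p = 0.0270). The 6 fibroblast and progenitor markers overlapped in sum (1951 to 3518 and 1987 to 4289 TPM), but DPT and PI16 among them were called higher in the GOM (log2 fold change 2.60 and 2.10, edgeR adjusted p = 0.00260 and 0.0299). The part of these cell types in the depot results was not tested. Skeletal muscle markers were high only in wild boar ULB replicate 1. Without that library MMP27 and LOX were still called lower in the GOM and MMP2 and MMP1 were not, as stated.

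In the wild boars alone, with 2 libraries in each depot, 4 of 44 members were called against 1.97% of all genes. LOX, MMP27 and MMP1 were lower in the GOM, where 0.748% of all genes were called lower, and MMP24 was higher, where 1.22% were. LOX had a log2 fold change of -2.25 (SE 0.29, edgeR adjusted p = 0.0205) and MMP27 one of -4.95 (SE 0.77, adjusted p = 0.0334). MMP1, with no count in either wild boar GOM library, was at least 14.6-fold lower there, taking 3 counts per library as the floor (edgeR adjusted p = 0.0386). MMP2 did not pass (log2 fold change -1.75, SE 0.35, edgeR adjusted p = 0.0640). Without wild boar GOM replicate 1 only MMP27 was called among the members.

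Both depots were taken from the same 2 wild boars, and the replicate number was assumed to mark the animal, which no label states. With that number as a replicate block, 12 of 44 members (27.3%) and 10.03% of all genes were called by edgeR in the wild boars. These were LOX, MMP1, MMP2, MMP16, MMP27 and ADAMTS10, lower in the GOM, and MMP24, TIMP1, ADAMTS3, ADAMTS7, ADAMTS13 and ADAMTS16, higher. Over all genes the calls went from 318 to 1623.

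MMP24, a membrane-anchored MMP best known from neurons, had the most uneven pattern of the members. It had 11.3 and 7.43 TPM in the wild boar GOM (583 and 471 counts), 1.77 and 0.744 in the Bama pig GOM, 0.0199 and 0.283 in the wild boar ULB (1 and 14 counts) and 0.966 in the Bama pig ULB. The 2 wild boar GOM libraries were thus above all others, while the Bama pig values of both depots overlapped. In the wild boars the depot log2 fold change was 6.15 (SE 0.76, edgeR adjusted p = 0.0197), which was lost without wild boar GOM replicate 1 or 2 (adjusted p = 0.116 and 0.0545). Across both breeds it was 3.18 (SE 1.33, edgeR adjusted p = 0.230).

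**Figure D3:**
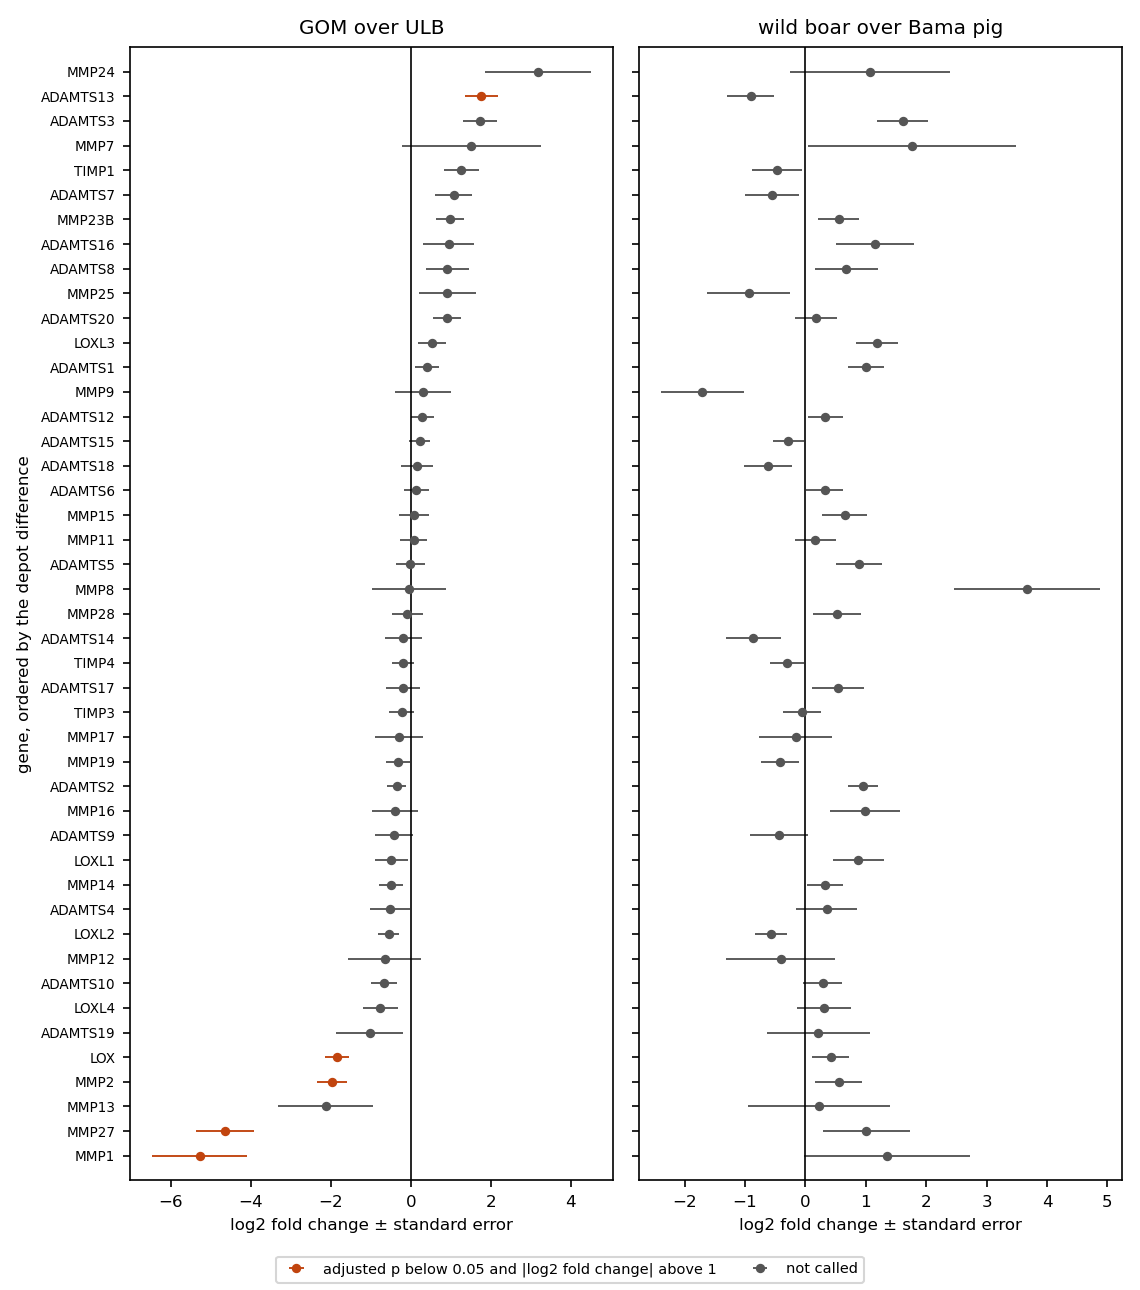
Log2 fold changes with standard errors (horizontal axes) of the 45 genes tested, for GOM over ULB on the left and wild boar over Bama pig on the right, both ordered by the depot difference (vertical axis), with called genes in red. The 5 called genes are all in the depot panel, and the fitted values of MMP1, MMP7 and MMP13 rest on few counts.

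Breed was compared across both depots with depot as a term. The 4 wild boar and 3 Bama pig libraries came from 2 animals per breed and were taken as independent. The p-values of this comparison therefore do not measure the spread between animals alone. None of the 45 members was called by edgeR, while 0.446% of all genes were, and 8 members had an unadjusted p under 0.05 (17.8% of the members and 20.7% of all genes). ADAMTS1, ADAMTS2, ADAMTS3, ADAMTS5, LOXL3 and MMP8 were the 6 with higher fitted levels in wild boars, and ADAMTS13 and MMP9 the 2 with lower. No member had breeds that did not overlap, a pattern with higher wild boar values in 1.08% and lower ones in 11.7% of genes. DESeq2 called 3 members (LOXL3, MMP8 and ADAMTS3), which is 6.67% of them against 5.98% of all genes, and limma on TPM called 0. The median log2 fold change was 0.33 over the members and -0.02 over all genes with the usual scaling, 0.19 and -0.16 with upper-quartile scaling, and 0.01 and -0.22 in limma on TPM.

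The procollagen N-proteinases ADAMTS2 and ADAMTS3 had the smallest p of the members. ADAMTS2 had 28.9 and 18.5 TPM in the wild boar GOM, 18.8 and 15.4 in the Bama pig GOM, 35.4 and 29.8 in the wild boar ULB and 17.5 in the Bama pig ULB, so that the breeds overlapped in the GOM only (log2 fold change 0.95, SE 0.25, edgeR adjusted p = 0.107). ADAMTS3, with the values given above, had a breed log2 fold change of 1.61 (SE 0.42, edgeR adjusted p = 0.112). LOXL3 had 9.31 and 4.23, 6.71 and 4.08, 5.85 and 7.24, and 1.92 TPM in the same order of groups (log2 fold change 1.19, SE 0.35, edgeR adjusted p = 0.133).

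MMP8, neutrophil collagenase, was highest in the wild boar libraries numbered 2. It had 0.0957 and 4.08 TPM in the wild boar GOM, 0.0519 and 0.218 in the Bama pig GOM, 0.730 and 3.04 in the wild boar ULB and 0.319 in the Bama pig ULB. Replicate 2 thus held the highest value in each wild boar depot. The breed log2 fold change of 3.67 had an SE of 1.21 (edgeR adjusted p = 0.151). Of the 4 neutrophil markers listed, 2 were measured. CSF3R had 1.14 and 3.38 TPM in the wild boar GOM, 13.1 and 1.80 in the Bama pig GOM, 0.271 and 2.07 in the wild boar ULB and 1.89 in the Bama pig ULB, so it was higher in replicate 2 of each wild boar depot, as MMP8 was. S100A8 had 362 and 180.5 TPM in the wild boar GOM and 28.6 and 91.0 in the Bama pig GOM. In the ULB it had 49.6 and 18.0 TPM in the wild boar and 2.36 in the Bama pig. In each depot S100A8 was higher in every wild boar library than in Bama pig, and in the wild boars it was higher in replicate 1. The breed log2 fold change was 2.97 for S100A8 (SE 0.57, edgeR adjusted p = 0.0621) and -0.96 for CSF3R (SE 0.74, edgeR adjusted p = 0.476). The part of neutrophils was not tested. MMP9 had 1.53 and 0.881 TPM in the wild boar GOM, 4.77 and 0.885 in the Bama pig GOM, 0.493 and 0.506 in the wild boar ULB and 4.29 in the Bama pig ULB. Its log2 fold change of -1.70 (SE 0.69, edgeR adjusted p = 0.204) was called only without Bama pig GOM replicate 2 (adjusted p = 0.0309), a setting in which the calls over all genes went from 80 to 1779.

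Within the GOM, where each breed has 2 libraries, edgeR called 0 of 41 members and 0.0241% of all genes. The 3 members with an unadjusted p under 0.05, all with higher fitted levels in the wild boar, were MMP24, ADAMTS3 and ADAMTS2 (7.32% of the members and 8.0% of all genes). MMP24 had a log2 fold change of 3.48 (SE 0.52, edgeR adjusted p = 0.252). It was called by DESeq2 (adjusted p = 1.7e-07, with 0.987% of all genes called), without the filter on low values (0.0270), with the replicate number as a block (0.0469) and without wild boar GOM replicate 1 (0.00644) or 2 (0.000704), and in limma on TPM 0 members were called. Across breeds the number pairs no animals, and with 1 wild boar library left the spread comes from the Bama pig pair alone. HBB, the blood marker, had 7842 and 12501 TPM in the wild boar GOM, 171 and 1417 in the Bama pig GOM, 2299 and 1953 in the wild boar ULB and 344 in the Bama pig ULB, and so was highest in the 2 libraries where MMP24 was. Liver markers (5 genes) summed to 510 and 1342 TPM in the Bama pig GOM and 256 and 186 in the wild boar GOM. APOA1 alone had 146 to 227 TPM in every library. In the breed comparison across both depots, 3 of the 5 were called lower in wild boar. These were ALB, APOB and FGB (log2 fold change -5.66, -4.75 and -4.14, edgeR adjusted p = 0.00256, 0.0145 and 0.0145). In each depot every Bama pig library was above every wild boar library for these 3, as for ADAMTS13. The part of blood or liver RNA in these results was not tested. The breeds were not compared within the ULB alone, where Bama pig has 1 library.

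Whether depot differences varied with breed was tested as an interaction, and edgeR called 0 of 45 members and 0.0% of all genes, with 2 members (4.44%) and 4.65% of all genes at an unadjusted p under 0.05. MMP24 had an interaction of 6.29 on the log2 scale (SE 1.14, edgeR adjusted p = 0.411). MMP16, a membrane-anchored MMP, had 1.95 and 2.04 TPM in the wild boar GOM, 3.55 and 2.45 in the Bama pig GOM, 5.41 and 6.69 in the wild boar ULB and 0.733 in the Bama pig ULB. It was thus higher in the ULB in wild boars and lower in the single ULB library of Bama pig (interaction -2.86, SE 0.70, edgeR adjusted p = 0.803). DESeq2 called both genes (4.44% of the members and 0.284% of all genes), and limma on TPM called 0. With the replicate number within a breed, taken as the animal, as a block, a fit chosen after seeing the data that leaves 1 residual degree of freedom and takes the Bama pig depot difference from replicate 2 alone, edgeR called 5 members and 3.76% of all genes. MMP24 (interaction 7.06, SE 0.87), TIMP1 (2.32, SE 0.58), MMP9 (4.20, SE 1.11) and ADAMTS16 (3.71, SE 1.08) were, relative to the ULB, higher in the GOM of wild boars than in Bama pig replicate 2, and MMP16 (-2.64, SE 0.76) lower, with edgeR adjusted p of 3.52e-09, 0.00775, 0.0126, 0.0296 and 0.0257. ADAMTS16 had 2.01 and 1.83 TPM in the wild boar GOM, 1.48 and 0.187 in the Bama pig GOM, 0.762 and 0.704 in the wild boar ULB and 0.605 in the Bama pig ULB. Replicate 2 of the Bama pig GOM, the library this fit sets against the Bama pig ULB, was thus the lowest of the 7.

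The enzymes and substrates around the members were read from a list of 56 genes, 54 of them tested, which held ADAMs, ADAMTS-like proteins, cathepsins, the plasminogen system, procollagen processing and matrix substrates. In the depot comparison 2 were called higher in the GOM and 2 lower, where 2.28% and 1.22% of all genes tested were. TGM2, a transglutaminase that crosslinks matrix proteins by another chemistry than LOX, had a log2 fold change of 2.15 (SE 0.51, edgeR adjusted p = 0.0479), with 28.7 to 72.7 TPM in the GOM and 6.05 to 20.3 in the ULB. ADAMTSL3, an ADAMTS-like protein without a protease domain, had one of 1.34 (SE 0.26, edgeR adjusted p = 0.0175). PCOLCE, which enhances procollagen C-proteinase, was lower (log2 fold change -1.64, SE 0.31, edgeR adjusted p = 0.0159), with 33.6 to 61.4 TPM in the GOM and 149 to 166 in the ULB. COMP, a cartilage and tendon matrix protein and a substrate of ADAMTS7 and ADAMTS12, had no count in any GOM library and 0.496 to 19.9 TPM in the ULB, at least 80.9-fold lower in the GOM with 3 counts per library as the floor (edgeR adjusted p = 0.00278).

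The 9 ADAM genes and 4 cathepsins tested gave 0 calls by edgeR in the depot or breed comparison. The substrates had a median depot log2 fold change of -0.43 over 15 genes, with 11 of them below 0, and 1 (COMP) was called. The plasminogen list also had a median below 0 (-0.22). Medians were above 0 for the ADAMTS-like genes (1.14), procollagen processing (0.53), the cathepsins (0.48) and the ADAMs (0.31). Over the 54 genes tested the median was 0.27, against 0.04 over all genes. In the breed comparison 1 gene of the list was called, while 0.446% of all genes were. It was PAPLN (papilin, an ADAMTS-like matrix protein), which was higher in wild boar (log2 fold change 1.82, SE 0.27, edgeR adjusted p = 0.0214).

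All 46 members were placed on Sscrofa11.1, and 45 had a compartment score, TIMP1 on the X chromosome having none. The score is PC1 of the 20-kb bin with the gene start, where values above 0 mark the open A compartment and values below 0 the closed B compartment. In all 7 Hi-C libraries, 31 members were in A (68.9%, against 78.4% of 13052 listed autosomal genes) and 10 in B (22.2%, against 10.02%). Those in B were LOX, MMP1, MMP12, MMP13, MMP16, MMP20, MMP27, ADAMTS18, ADAMTS19 and ADAMTS20, and ADAMTS3, MMP7, MMP8 and MMP28 were mixed. The 5 low members had a median PC1 of -9.91, the value of MMP20, and the other 40 members one of 25.4. Of the low members, MMP7, MMP13 and MMP20 lie in the chromosome 9 cluster described below, so their scores are not independent.

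Level and compartment did not go together for every member. The RNA came from bulk tissue and the Hi-C nuclei from the floating adipocyte layer, so levels and scores describe different cell mixtures. Whether that difference accounts for the mismatches given here was not tested. LOX, the fourth most abundant, had its start in B in each library, with PC1 from -13.4 to -5.89. ADAMTS18, at 7.84 to 44.6 TPM, had a mean PC1 of -29.7. MMP17, one of the 5 low members, was in A throughout with a mean of 25.1. MMP24 lay between 27.1 and 32.0 in all libraries, although its TPM differed widely between them.

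**Figure D4:**
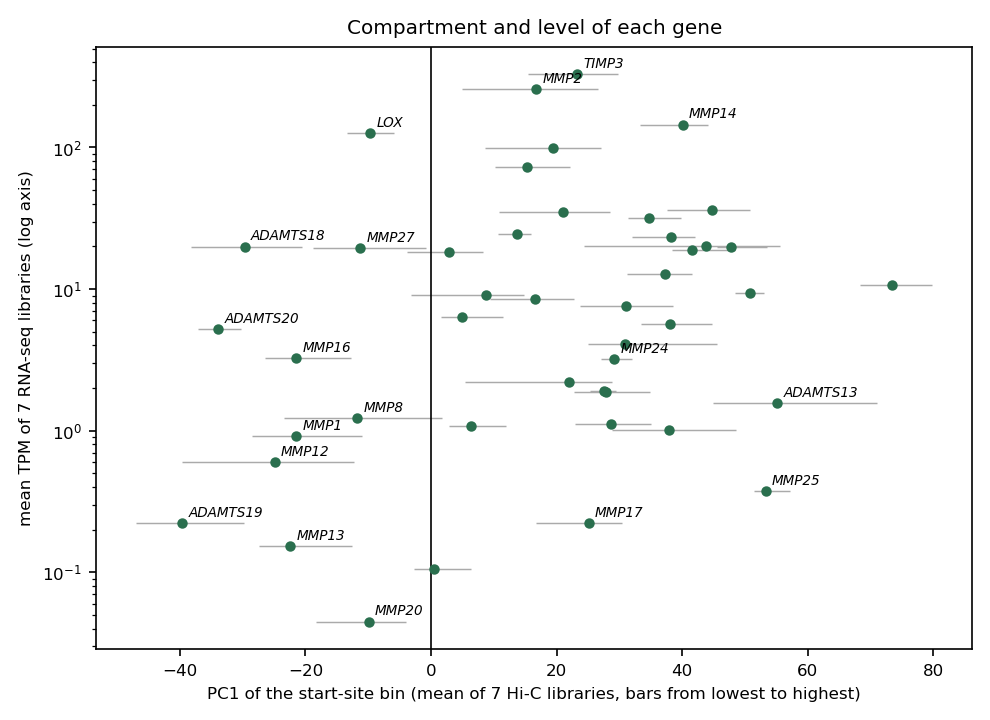
Mean TPM over 7 RNA-seq libraries (vertical, log axis) against mean PC1 of the start-site bin over 7 Hi-C libraries (horizontal, with bars from the lowest to the highest library) for the 45 genes with a score. LOX, ADAMTS18 and MMP27 lie left of 0 at or above 19 TPM, and MMP17 and MMP25 lie right of 0 below 1 TPM.

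Of the genes in B, 5 belong to a cluster of 7 MMP genes on chromosome 9 (33214590 to 33616700, 402 kb), in the order MMP7, MMP20, MMP27, MMP8, MMP1, MMP12 and MMP13, all on the minus strand. The cluster holds both the silent MMP20 and the depot-dependent MMP27 and MMP1. Its mean PC1 was -21.9 and -15.7 in the wild boar GOM, -14.4 and -22.2 in the Bama pig GOM, -8.56 and -11.8 in the wild boar ULB and -16.7 in the Bama pig ULB, with 1 to 3 of its 21 bins in A. The least negative means were those of the wild boar ULB, and the Bama pig ULB lay among the GOM libraries. At the MMP27 start, PC1 was -18.8 and -11.2 in the wild boar GOM, -15.0 and -18.4 in the Bama pig GOM, -0.727 and -3.18 in the wild boar ULB and -11.8 in the Bama pig ULB. The depots overlapped there by the Bama pig ULB library, and the sign was the same in all 7. Between MMP27 and MMP1, MMP8 had a start-site PC1 above 0 in wild boar ULB replicate 1 alone (1.71).

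**Figure D5:**
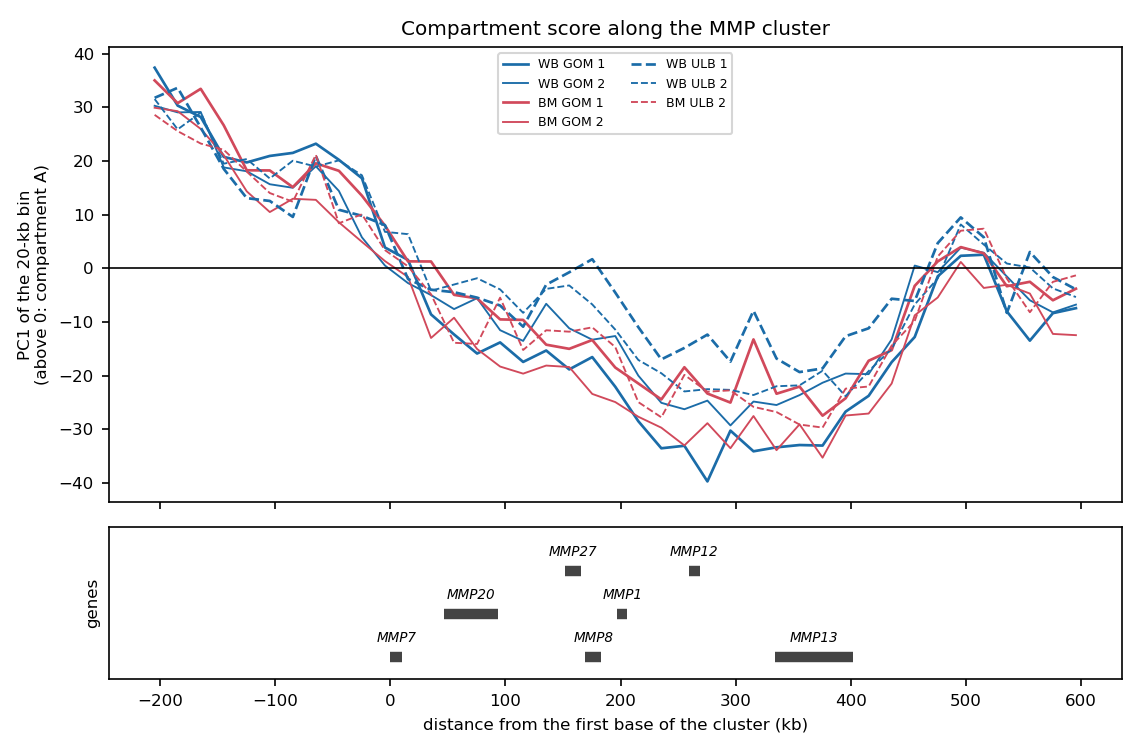
PC1 of 20-kb bins (upper panel, vertical axis) in the 7 Hi-C libraries along the MMP cluster on chromosome 9, against distance in kb from its first base (horizontal axis), with the genes drawn to scale below (blue wild boar, red Bama pig, solid GOM, dashed ULB). PC1 falls from about 30 before the cluster to below 0 inside it in all libraries, and the dashed blue lines lie highest over MMP27, MMP8 and MMP1.

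Topologically associating domains (TADs, regions of frequent self-contact), which were called once per breed and depot, ended at 33340000 between MMP20 and MMP27 in all 4 lists. MMP7 and MMP20 were inside that TAD, which was 300.0 kb long in the Bama pig GOM and 600.0 kb in the others. The other 5 genes lay in a stretch of 400.0 to 440.0 kb in which no TAD was listed, up to a TAD starting at 33740001 or 33780001. MMP27 and MMP1 were thus outside any listed TAD in both depots of both breeds.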

How the data were processed

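RNA-seq of 4 animals (2 per breed) and both depots gave 7 libraries. Kallisto was run by the authors on protein-coding genes (version 0.43.0 in the submitters' processing notes, whose version and kit differ from the paper's) against the Sscrofa11.1 Ensembl annotation and deposited estimated counts per gene and library, not normalized. They also deposited TPM values, scaled by length and depth within each library. The listed genes hold 774260 to 956616 of each library's TPM. For Hi-C, the authors deposited a score per 20-kb bin and library, named an A-B index but read here as PC1 because it is centred on 0 in each chromosome, and TAD starts and ends per group, called on merged replicates. The planned description allowed for either score and uses its sign.

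Gene identifiers were matched to symbols for 14821 of 21280 genes, and to RefSeq positions by symbol. Every column was assigned to a library from its name. Estimated counts were rounded, and genes were kept with TPM above 0.1 in at least 2 libraries, for the within-breed or within-depot fits in both replicates of a group. Tests were those of edgeR 4.0.16 (quasi-likelihood, TMM scaling, two-sided, Benjamini-Hochberg) in R 4.3.3. DESeq2 1.42.0, limma 3.58.1 on log2(TPM + 1), other filters and scaling, a replicate block and leaving out each library were alternatives. With 2 or fewer animals per group, p-values rest on few animals, and the fits assume that the single Bama pig ULB library varies like the others. The breed fit over both depots had no term for the animal. It took 4 wild boar and 3 Bama pig libraries from 2 animals per breed as independent, so its p-values mix the spread within and between animals. Where a library was left out, an arm of 1 library was likewise assumed to vary like the others. The block pairs depots by replicate number within a breed, assumed to be the animal since both depots came from the same animals, although no label states it. Deviations of same-numbered wild boar libraries had a Pearson's r of 0.154 over 17934 genes. The main edgeR fits were also run on simulated counts, with changes in well-counted genes only and no animal effect. That run does not cover members with few counts or the block fits. Intervals and floors cover counting error only.

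The members, lists and tests were chosen with earlier results of these data known. Values in every library are given for members called in any comparison, the 8 with the smallest p in the depot and in the breed comparison, and the 10 with the highest mean TPM. The other members are given by ranges and counts. Listed context genes are named where called. Proteins and promoters from other sources were not used here. Figures were drawn with matplotlib 3.10.9 in Python 3.11.15.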

Additional observations from a re-analysis of the deposited data

How the results depend on the processing

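The number of members called between depots was 5 with edgeR, 6 by DESeq2, 6 with no filter on low values, 4 with upper-quartile scaling and 3 in limma on log2(TPM + 1), and 2 to 4 when each library was left out, the lowest without wild boar GOM replicate 2 or ULB replicate 1. Across breeds it was 0, against 3 by DESeq2, 1 with no filter and 0 to 1 with each library left out (MMP9, without Bama pig GOM replicate 2). Within the GOM it was 0, against 1 by DESeq2, 1 with no filter and 0 to 2 with each library left out (2 without wild boar GOM replicate 1 and 1 without replicate 2). For the interaction it was 0, against 2 by DESeq2, and without the Bama pig ULB library it could not be fitted. In the wild boars it was 4, against 11 by DESeq2 and 1 to 4 with each library left out (1 without GOM replicate 1 and 2 without GOM replicate 2). Silent members numbered 1, against 5 at a limit of 0.5 TPM, 2 at 3 or fewer estimated counts per library and 0 with TPM rescaled over the listed genes. The cause of these changes was not tested.

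With the replicate number, taken as the animal, as a replicate block, 5 members were called between depots, ADAMTS3 in place of ADAMTS13, and 12 in the wild boars. Breeds share replicate numbers only, and there the block gave 0 members across depots and 1 in the GOM (MMP24). For the interaction, the block gave 5 members and 674 genes. No paired analysis was possible for silent members and compartments because they come from no test.

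Directions turned for members that were not called. The depot log2 fold change ranged from -0.40 to 0.33 for ADAMTS5 and from -0.80 to 0.17 for ADAMTS9 with each library left out. It was above 0 for ADAMTS5 without wild boar GOM replicate 1 (0.33) or ULB replicate 2 (0.18). The breed log2 fold change ranged likewise from -0.28 to 0.14 for TIMP3, from -0.88 to 0.031 for TIMP1 and from -0.84 to 0.12 for ADAMTS9.

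Calls over all genes numbered 628 between depots by edgeR, against 1297 by DESeq2, 999 with no filter and 346 by limma. Across breeds they were 80, against 1072, 503 and 49, with 51 under filterByExpr. In the GOM they were 4, against 164, 26 and 0, with 15 under the block, and for the interaction 0, against 51, 7 and 110. In the wild boars they were 318, against 1317 by DESeq2, 608 with no filter and 1623 with the block. With each library left out they were 237 to 672 between depots, 1 (without the Bama pig ULB library) to 1779 (without Bama pig GOM replicate 2) across breeds, 0 to 123 in the GOM, 0 to 1 for the interaction, and 44 to 227 in the wild boars. Depth limits members with few counts, such as MMP7, MMP13 and MMP20, and the Bama pig ULB library was the shallowest, at 10833153 estimated counts. The share of calls that were higher was 28.7% across breeds, against 41.8% by DESeq2, 40.3% with the block and 12.2% by limma, and 61.9% in the wild boars, against 36.5% by limma. In the GOM 2 of the 4 calls were higher, against 39.6% by DESeq2 and 33.3% with upper-quartile scaling. Limma on TPM moved the median of all genes to -0.41 in the GOM, -0.45 for the interaction and -0.12 in the wild boars.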
